A study of Homo sapiens with 12 samples.

Results

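The comparison described here sets islet-like cells labelled CLEC16A knockout against the wild type cells made beside them, across all genes that passed a filter on low counts. It rests on 6 of the 12 RNA-seq libraries of the series, the 3 titled C16-KO and the 3 titled C16-WT, chosen by their titles alone. Both groups came from MEL1, a human embryonic stem cell line, by way of expandable pancreatic progenitors (ePPs), which the labels describe as grown on feeder cells in a medium named EF6I with B27, EGF, bFGF, 616452 (an ALK5 inhibitor) and the BET inhibitor I-BET151. All libraries were collected on day 8 in a medium named R6. That medium, shared by knockout and wild type, held B27, BSA, zinc sulfate, heparin, 616452, thyroid hormone T3, the BMP receptor inhibitor LDN-193189, the gamma-secretase inhibitor Compound E, vitamin C and forskolin. The labels name no guide, edited site or clone and do not say whether replicates were separate cultures. Differences between the cell lines and effects of the knockout therefore cannot be told apart, and p-values reflect only how far these libraries scatter, which may be technical variation. "Knockout" below means the libraries so labelled.

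CLEC16A is a membrane-associated protein that works with the ubiquitin ligase RNF41 (also called NRDP1) and the deubiquitinase USP8. Together they control mitophagy, the removal of damaged mitochondria by autophagy. In beta cells CLEC16A is known for keeping mitochondria fit for insulin secretion, and variants near the gene are linked to type 1 diabetes. Pancreatic progenitors arise from foregut endoderm next to those of liver, duct and intestine, and these lineages share many transcription factors.

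The count table held 60624 gene IDs, of which 19958 passed the filter and were tested with edgeR. Transcript levels are given as CPM, counts scaled by library size with TMM, which is not divided by gene length and so compares a gene only with itself across libraries. At an adjusted p under 0.05, 4732 genes were higher in knockout (23.7% of those tested) and 4253 were lower (21.3%), so that 45% of tested genes were called. With a change of at least 2-fold added, 1745 genes rose (8.74%) and 1030 fell (5.16%), together 13.9%. At 16-fold or more, 72 genes rose and 20 fell. The median log2 fold change over all tested genes was -0.01. Of protein-coding genes 52.4% were called, and counts in the gene lists below are read beside that share and the 45%. The share called grew with level, from 17.4% of genes under 1 CPM to 63.0% of genes over 100 CPM, and among the latter 41.3% rose and 21.6% fell. Of called genes 52.7% were higher in knockout with TMM and 43.2% with upper-quartile scaling, which moved the median of all genes by -0.07. With limma on log2(TPM + 1), where the test, filter, unit and scaling all differ, 39.8% were higher and the median moved by -0.10. Groups did not overlap for 53.8% of tested genes, and for 8712 of the 8985 called ones. Deposited TPM values had the same direction in 99.0% of the 8504 called genes with a mean of at least 1 TPM.

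**Figure D1:**
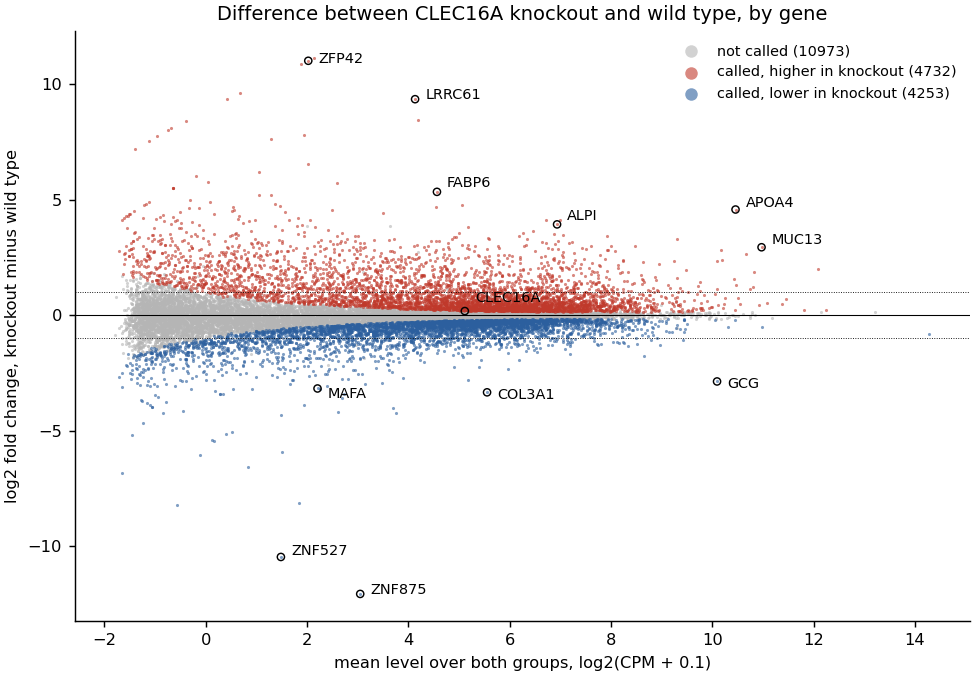
Each point is 1 of 19958 tested genes. The x axis is its mean level over both groups as log2(CPM + 0.1) and the y axis its log2 fold change, knockout minus wild type, with dotted lines at 2-fold. Red and blue points passed an adjusted p of 0.05, grey points did not, and CLEC16A lies near 0.

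Total counts per library ran from 31364272 to 33763795. The first principal component of log2 CPM, with 70.9% of the variance, separated knockout from wild type. The second, with 8.28%, set knockout replicate 3 apart (-38.1, against 17.8 and 23.3 for the other knockout libraries). Without that library 4477 genes were higher and 3972 lower. Medians of the 53 gene lists described below then moved by at most 0.24, and 3 changed sign, those of cholesterol synthesis, the cAMP and thyroid hormone response and the Wnt pathway. All 37 genes of mitochondrial DNA were at 0 counts in every library, so nothing is said of them.

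Whether the cells carry islet markers was looked at first. Islet endocrine markers (INS, GCG, SST, PPY, GHRL, CHGA, CHGB, NEUROD1, NKX2-2, ISL1 and PAX6) were present in both groups. Their summed level was 14213 to 16510 CPM in knockout and 27404 to 30263 CPM in wild type libraries, and all 11 of 11 fell, where 45% of all tested genes were called. CHGA, a granin, made up 87.1% to 93.4% of that sum, and the other 10 summed to 1051 to 1088 CPM in knockout and 3545 to 3594 CPM in wild type. The fall was not particular to islet markers. Markers like those of enterochromaffin cells, the serotonin-producing cells of the gut, summed to 1194 to 1267 CPM in knockout and 1953 to 2024 CPM in wild type, with 6 of 6 lower. Liver markers summed to 16276 to 17929 CPM in knockout and 6357 to 6658 CPM in wild type libraries, so wild type cells also carried them, with 6 of 8 higher in knockout. Without AFP, the most abundant liver marker, the sums were 9519 to 10593 CPM in knockout and 4668 to 4894 CPM in wild type. Intestinal markers summed to 5235 to 6048 CPM in knockout and 1157 to 1256 CPM in wild type, with 7 of 7 higher. MUC13 made up 36.3% to 64.3% of that sum. Without it the intestinal sums were 1929 to 2159 CPM in knockout and 737 to 758 CPM in wild type. Pancreatic progenitor markers stood at 603 to 643 CPM in knockout and 678 to 689 CPM in wild type, with 3 of 5 tested higher and 2 lower. Without NKX6-1, the most abundant of them, the order turned, with 402 to 430 CPM in knockout and 331 to 367 CPM in wild type. PTF1A was under 0.5 CPM in both groups. Mesenchymal markers were scarce, at 16.4 to 16.9 CPM in knockout and 117 to 125 CPM in wild type, and endothelial markers at 10.5 to 13.4 CPM and 20.6 to 22.5 CPM, with groups that overlapped once CLDN5 was left out. The blood marker HBG1, the stomach marker GKN1 and the acinar marker PNLIP were at 0 in every library, and the pluripotency markers POU5F1 and NANOG were under 0.5 CPM. In bulk RNA, fewer cells of a type and less RNA per cell cannot be told apart.

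**Figure D2:**
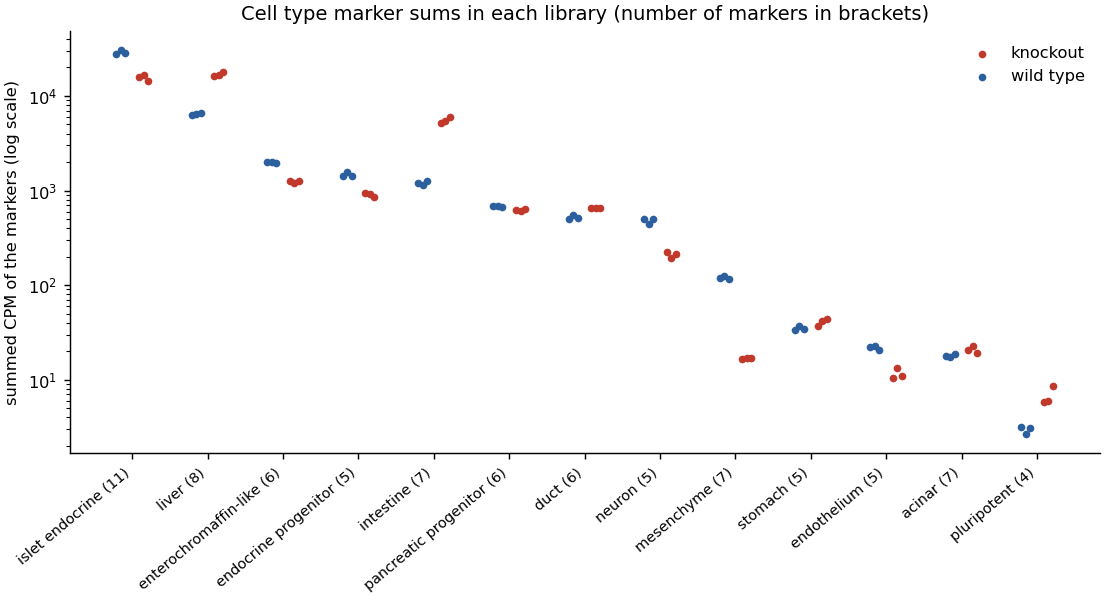
Summed CPM of cell type markers on a log axis, with 1 point for each of 3 knockout (red) and 3 wild type (blue) libraries and the number of markers in brackets. Knockout points lie below wild type for islet endocrine, neuron and mesenchyme markers and above it for liver and intestine markers.

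CLEC16A itself (chromosome 16, 10944488 to 11182189, plus strand, hg38) did not differ by the test. Its transcript stood at 35.4, 38.04 and 36.8 CPM in knockout and 36.2, 30.1 and 30.8 CPM in wild type, and the groups overlapped (adjusted p = 0.0949). Without wild type replicate 1 it passed, with a log2 fold change of 0.27 (adjusted p = 0.0335). A transcript level per gene does not show whether an edited exon is disrupted, so it does not check the labels. Of the 16 tested genes beside it on chromosome 16, 4 rose and 3 fell, 43.8% called against 45% of all genes, with a median log2 fold change of 0.08 that turned negative with limma on TPM. LITAF and TXNDC11 were among those that rose and SNN among those that fell. LITAF, a membrane protein of late endosomes and lysosomes, was at 19.6, 14.7 and 19.3 CPM in knockout and 9.98, 8.69 and 10.2 CPM in wild type, a 1.86-fold rise. SOCS1, a suppressor of cytokine signalling, was at 11.0, 11.4 and 8.47 CPM in knockout and 8.75, 8.12 and 7.47 CPM in wild type and did not pass (adjusted p = 0.0645), but passed without knockout replicate 3 (log2 fold change 0.46, adjusted p = 0.0130). Its neighbour DEXI, named in the same disease-linked interval, was at 2.13, 2.205 and 2.09 CPM in knockout and 2.09, 2.08 and 2.49 CPM in wild type, without a called difference. That test rests on only 65 to 82 counts per library. In the deposited TPM values DEXI was not scarce, with means of 31.4 in knockout and 37.5 in wild type, against 10.6 and 10.5 for CLEC16A. Why counts and TPM of DEXI differ so was not tested.

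A few genes were present in 1 group and at 0 counts in the other. ZNF875, a zinc-finger gene on chromosome 19, had 0, 0 and 0 CPM in knockout and 17.9, 15.1 and 16.1 CPM in wild type libraries. Against a floor of 3 counts per library this was at least 171-fold lower in knockout. Its neighbour ZNF527 was likewise at 0 in knockout and at 5.54, 5.88 and 4.77 CPM in wild type, at least 56.5-fold lower. In the other direction, ZNF594 was at 7.76, 7.95 and 10.1 CPM in knockout and 0 in wild type, at least 96.6-fold higher. ZFP42 (REX1), a zinc-finger protein known as a marker of pluripotent cells, was at 8.44, 8.60 and 6.77 CPM against 0, at least 89.0-fold higher. ZNF615 was at 6.63, 7.86 and 6.90 CPM against 0, at least 79.9-fold higher. All 5 genes at 0 in every library of 1 group and at 5 CPM or more in the other encode zinc-finger proteins.

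LRRC61, which encodes a leucine-rich repeat protein, came close to the same pattern. It was at 37.0, 36.7 and 30.8 CPM in knockout and 0.143, 0 and 0 CPM in wild type, a ratio of 704 (95% counting interval 301 to 2168). ACTR3C, an overlapping gene on the other strand of chromosome 7, was at 3.07, 2.76 and 3.11 CPM against 0, and reads of the pair may not be separable since the use of strand is not given in the sources used here. ZBED10P, a pseudogene, was at 37.4, 38.4 and 32.2 CPM in knockout and 0.0574, 0.241 and 0 CPM in wild type. The other extreme was LINC02693, annotated as protein-coding in GENCODE v29 despite its name, at 0, 0 and 0.0642 CPM in knockout and 8.17, 5.67 and 6.92 CPM in wild type, a ratio of 327 (90.3 to 2709) in favour of wild type. FIRRE, an X-linked non-coding RNA, was also lower, at 0.162, 0.0932 and 0.514 CPM in knockout and 4.47, 6.97 and 4.07 CPM in wild type.

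Promoters of such genes were read from RefSeq (GRCh38.p14), as the 250 bases before each start, to show their CpG content. The median promoter of genes not called held 20 CpG dinucleotides (6799 promoters), that of genes up by at least 2-fold 10 (1116 promoters) and that of genes down by at least 2-fold 14 (618 promoters). Promoters of ZNF594, LRRC61, ZNF527, ZFP42, ZNF615, ACTR3C and ZNF875 held 32, 29, 24, 23, 17, 16 and 15. Both sequences below have each CG in capitals, 23 in ZFP42 (chr4:187995521-187995770, plus strand) and 29 in LRRC61 (chr7:150323105-150323354, plus strand). Quartiles for genes not called were 12 and 27, so ZFP42 lay between them and LRRC61 just above. They are shown because transcripts of these genes were abundant in 1 group and near 0 in the other. A CG in these letters is a description and says nothing of its methylation.
ZFP42: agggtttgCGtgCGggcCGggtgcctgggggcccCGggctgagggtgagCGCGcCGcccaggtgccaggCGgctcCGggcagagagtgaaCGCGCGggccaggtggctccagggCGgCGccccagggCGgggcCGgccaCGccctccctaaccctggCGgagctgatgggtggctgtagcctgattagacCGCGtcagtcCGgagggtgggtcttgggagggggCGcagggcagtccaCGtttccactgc
LRRC61: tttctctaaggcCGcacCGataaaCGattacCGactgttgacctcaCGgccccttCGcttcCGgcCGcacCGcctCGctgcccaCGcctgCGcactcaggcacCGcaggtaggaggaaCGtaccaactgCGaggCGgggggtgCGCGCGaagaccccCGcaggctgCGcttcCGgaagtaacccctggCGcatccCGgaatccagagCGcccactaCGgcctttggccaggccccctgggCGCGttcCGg

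Endocrine genes were lower in knockout by role. Of 26 tested endocrine transcription factors 25 fell and 1, GLIS3, rose, with a median log2 fold change of -0.87. IRX1, a homeobox gene of alpha cells, was at 11.4, 8.04 and 9.89 CPM in knockout and 27.8, 24.4 and 24.5 CPM in wild type. It was lower in each knockout library than in any wild type library. PAX6, needed by all islet endocrine cells, was at 43.6, 43.2 and 42.9 CPM in knockout and 97.1, 86.5 and 92.3 CPM in wild type, a 2.13-fold fall (log2 fold change -1.09, SE 0.07, adjusted p = 1.76e-11). LMX1B, a LIM homeobox gene known from serotonin-producing cells, was at 46.8, 43.6 and 33.7 CPM in knockout and 108, 83.8 and 99.2 CPM in wild type. GLIS3, a factor of beta cell development, went the other way, at 129.9, 118 and 140.2 CPM in knockout and 104, 86.8 and 94.8 CPM in wild type, though it did not pass with limma on log2(TPM + 1).

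Among 21 tested hormone and peptide genes 15 fell and 4 rose, with a median of -0.91. GIP, an incretin hormone of gut K cells, was at 4.43, 4.72 and 3.56 CPM in knockout and 17.3, 17.4 and 15.1 CPM in wild type, a 3.91-fold fall. GAL, the neuropeptide galanin, was at 4.43, 4.91 and 2.89 CPM in knockout and 15.7, 17.4 and 14.6 CPM in wild type, a 3.90-fold fall. No library of one group reached the other for either gene. The 4 that rose were NTS, SCT, SCG2 and TAC1. NTS, neurotensin of gut N cells, was at 66.9, 70.3 and 72.9 CPM in knockout and 23.2, 21.3 and 25.9 CPM in wild type, a 2.98-fold rise. SCT, secretin of gut S cells, was at 16.7, 19.4 and 11.7 CPM in knockout and 5.88, 5.64 and 6.04 CPM in wild type, though it did not pass in one fit of all 12 libraries (adjusted p = 0.124). SCG2, a granin of secretory granules, was at 921, 805 and 875 CPM in knockout and 704, 701 and 712 CPM in wild type, and did not pass with limma on log2(TPM + 1) (adjusted p = 0.107). TAC1, the precursor of substance P, was at 19.8, 18.04 and 13.4 CPM in knockout and 8.92, 11.1 and 9.75 CPM in wild type. In these 4, too, the groups did not overlap. The overlapping INS-IGF2 transcript makes counts of INS uncertain: INS stood at 175, 199.7 and 175 CPM in knockout and 630.3, 692 and 549 CPM in wild type.

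The secretory machinery moved with the hormones. Of 28 genes of granule biogenesis and exocytosis 26 fell and none rose, with a median of -0.63. PTPRN (IA-2), a granule membrane protein, was at 135, 119.7 and 122 CPM in knockout and 312, 289 and 291 CPM in wild type, a 2.37-fold fall. SLC30A8, which loads zinc into insulin granules, was at 138, 126 and 119 CPM in knockout and 296, 260.2 and 274 CPM in wild type. G6PC2, the islet glucose-6-phosphatase, fell 4.98-fold to a mean of 0.955 CPM. Of 22 ion channel genes 20 fell and 1 rose, with a median of -0.90. ABCC8, the sulfonylurea receptor subunit of the ATP-sensitive potassium channel, was at 137, 128 and 133 CPM in knockout and 349, 279 and 321 CPM in wild type. Its partner KCNJ11 was at 44.6, 48.7 and 42.2 CPM in knockout and 97.3, 91.7 and 99.4 CPM in wild type. The channel's subunits fell 2.38-fold and 2.13-fold. ITPR3, an endoplasmic reticulum calcium channel, was the 1 riser, at 369, 333 and 398 CPM in knockout and 163, 145 and 160.2 CPM in wild type.

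Nutrient and peptide receptors followed, with 12 of 18 lower, 2 higher and a median of -0.91. FFAR1, a fatty acid receptor of beta cells, was at 7.89, 7.08 and 8.06 CPM in knockout and 19.8, 21.2 and 17.6 CPM in wild type. GIPR, the receptor of GIP, was at 17.7, 14.9 and 12.6 CPM in knockout and 36.7, 34.0 and 31.0 CPM in wild type. SSTR2, a somatostatin receptor, was at 45.5, 41.1 and 41.6 CPM in knockout and 104, 87.7 and 102 CPM in wild type. All 3 fell by more than 2-fold, with groups apart. The risers were INSR, the insulin receptor, at 128, 119 and 148 CPM in knockout and 76.9, 78.3 and 72.6 CPM in wild type, and GPRC5B, at 219, 199.6 and 219 CPM in knockout and 128, 112 and 127 CPM in wild type. Neuronal genes, many of them shared by endocrine cells, fell in 23 of 27 cases and rose in 2, with a median of -0.76. STMN2, a microtubule regulator, was at 198, 169 and 191 CPM in knockout and 444, 388 and 439.9 CPM in wild type. RTN1, a reticulon of neuroendocrine cells, was at 19.2, 18.2 and 16.8 CPM in knockout and 70.1, 68.3 and 67.4 CPM in wild type, a 3.80-fold fall.

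Promoters of GCG (chr2:162152248-162152497, minus strand) and INS (chr11:2161210-2161459, minus strand) are shown because these are the hormone genes with the largest falls in TPM. Capitals mark CATCTG, the E-box bound by NEUROD-type factors, or its reverse complement. GCG holds 2 matches, 147 and 90 bases before the start, and INS holds 1, 109 bases before it.
GCG: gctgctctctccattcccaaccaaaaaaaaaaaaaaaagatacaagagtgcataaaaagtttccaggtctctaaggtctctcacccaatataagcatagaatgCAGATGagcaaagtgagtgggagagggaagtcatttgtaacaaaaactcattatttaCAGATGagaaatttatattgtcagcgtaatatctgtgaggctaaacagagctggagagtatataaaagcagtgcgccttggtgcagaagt
INS: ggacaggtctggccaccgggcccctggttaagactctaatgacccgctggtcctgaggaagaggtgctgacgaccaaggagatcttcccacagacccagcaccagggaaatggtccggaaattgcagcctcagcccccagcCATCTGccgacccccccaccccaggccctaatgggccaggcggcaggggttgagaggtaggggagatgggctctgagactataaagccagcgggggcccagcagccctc

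Genes of the absorptive intestine had one of the highest list medians. Of 30 brush border and absorption genes 25 rose and 1, MGAM, fell, with a median log2 fold change of 1.54. ALPI, the intestinal alkaline phosphatase of the brush border, was at 221, 227 and 241 CPM in knockout and 14.8, 14.5 and 15.8 CPM in wild type (log2 fold change 3.93, SE 0.07, adjusted p = 8.76e-20). SLC5A1, the sodium-glucose cotransporter SGLT1, was at 57.0, 66.6 and 79.4 CPM in knockout and 5.68, 4.44 and 4.28 CPM in wild type, a 14.1-fold rise. SLC15A1, the peptide transporter PEPT1, was at 46.8, 46.5 and 65.3 CPM in knockout and 6.19, 5.34 and 4.74 CPM in wild type. None of these knockout libraries overlapped a wild type library. RBP2, the retinol binding protein of enterocytes, was at 292, 332 and 329 CPM in knockout and 42.8, 41.1 and 46.3 CPM in wild type. MGAM, a starch-digesting enzyme of the same membrane, was lower, at 21.5, 19.998 and 18.3 CPM in knockout and 34.5, 31.4 and 36.1 CPM in wild type.

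Transcription factors of the intestine rose in 11 of 15 cases and fell in 3, with a median of 1.01. CDX1, an intestinal homeobox factor, was at 1.49, 2.33 and 1.80 CPM in knockout and 0, 0.181 and 0 CPM in wild type, a ratio of 31.6 (95% counting interval 14.2 to 87.2) at a low level. VDR, the vitamin D receptor, was at 4.56, 4.50 and 3.72 CPM in knockout and 0.516, 1.18 and 0.759 CPM in wild type. KLF5, a zinc-finger factor of proliferating gut epithelium, was at 344, 352 and 394 CPM in knockout and 122, 108 and 119.5 CPM in wild type. MAF, a factor of mature enterocytes, was at 284, 283 and 339 CPM in knockout and 80.8, 92.0 and 85.7 CPM in wild type. Among those that fell, TCF4, a basic helix-loop-helix factor, was at 4.72, 3.51 and 4.78 CPM in knockout and 11.1, 11.3 and 12.5 CPM in wild type. TCF4 is counted in this list although it is not particular to the intestine.

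Mucin, goblet and stomach genes were mixed, with 9 of 18 higher, 4 lower and a median of 0.55. CLCA1, a secreted protein of goblet cells, was at 253, 275 and 282 CPM in knockout and 32.4, 28.7 and 28.2 CPM in wild type. MUC17, a membrane mucin of enterocytes, was at 6.33, 6.40 and 11.8 CPM in knockout and 0.631, 0.573 and 0.547 CPM in wild type. ZG16, a goblet cell lectin, was at 46.8, 52.8 and 61.4 CPM in knockout and 8.89, 9.29 and 10.6 CPM in wild type. All rose by more than 5-fold. Falls among them included ANXA10, an annexin of stomach, at 2.33, 1.89 and 2.76 CPM in knockout and 13.4, 13.1 and 14.1 CPM in wild type, and SOX2, at 7.37, 6.40 and 5.17 CPM in knockout and 12.6, 12.5 and 15.3 CPM in wild type. MUC13, a membrane mucin of the intestine, had one of the 10 largest rises in TPM, at 3305, 3464 and 3889 CPM in knockout and 466, 419.9 and 499 CPM in wild type.

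Bile acid handling genes were higher as well. Of 15 tested bile acid and sterol transport genes 12 rose and 1 fell, with a median of 1.57. FABP6, the ileal bile acid binding protein, was at 43.7, 52.4 and 41.8 CPM in knockout and 1.00, 0.905 and 1.49 CPM in wild type, a 40.6-fold rise. SLC10A2, the ileal bile acid uptake transporter ASBT, was at 164, 186 and 185 CPM in knockout and 27.5, 29.9 and 31.8 CPM in wild type. SLC51A, a subunit of the basolateral bile acid exporter, was at 168, 173 and 228 CPM in knockout and 19.99, 25.8 and 19.1 CPM in wild type. These 3 steps of ileal uptake, binding and export rose together. NR1H4, the bile acid receptor FXR, was at 41.0, 48.0 and 48.9 CPM in knockout and 7.00, 9.20 and 8.53 CPM in wild type. FGF19, a hormone that ileal cells release under FXR control, was at 34.5, 36.4 and 37.5 CPM in knockout and 8.66, 9.47 and 8.78 CPM in wild type. The 1 that fell was CYP7B1, an oxysterol hydroxylase, at 4.72, 3.88 and 4.17 CPM in knockout and 8.63, 9.38 and 10.2 CPM in wild type.

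**Figure D3:**
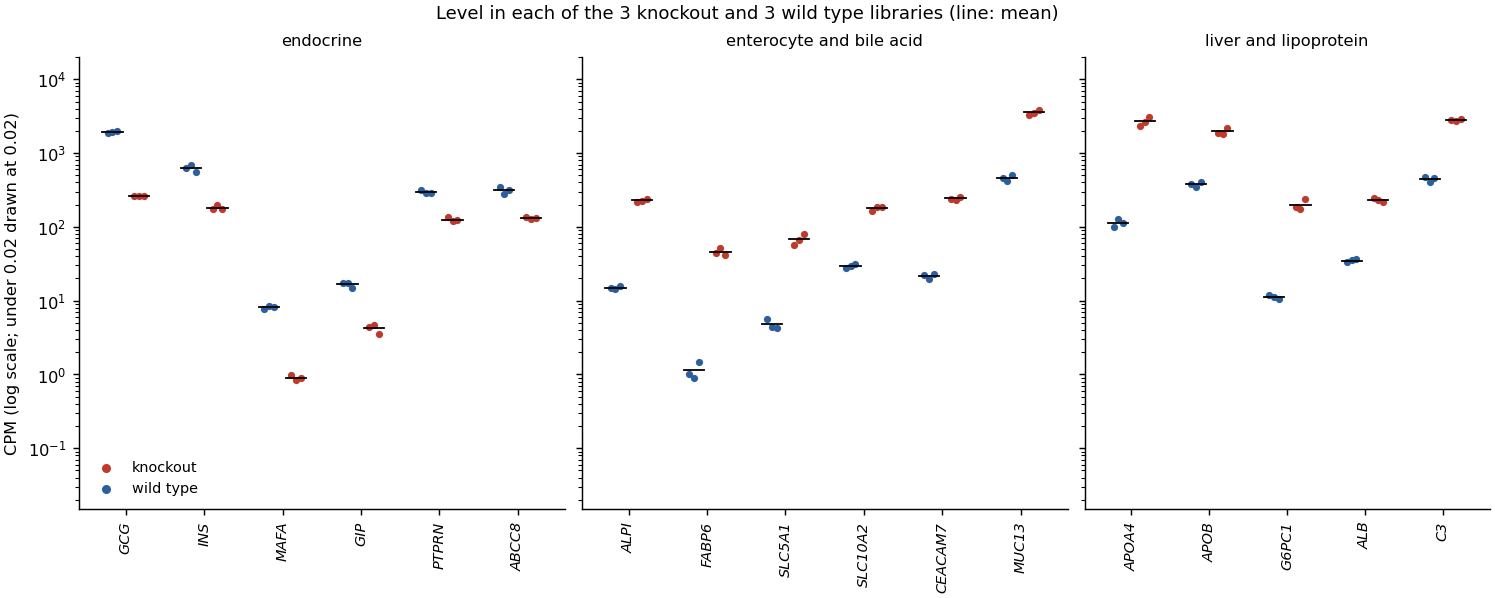
CPM of selected genes in each of 3 knockout (red) and 3 wild type (blue) libraries on a log axis, with a line at each group's mean. Knockout points lie below wild type for the 6 endocrine genes and above it for the 11 gut, bile acid, liver and lipoprotein genes, without overlap.

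Lipoprotein genes rose in 15 of 20 cases and fell in 1, with a median of 1.06. APOA4, an apolipoprotein of chylomicrons made by enterocytes, was at 2328, 2669 and 3099 CPM in knockout and 99.9, 128 and 111 CPM in wild type, a 23.9-fold rise and the largest rise in TPM of any gene. APOB, the structural protein of chylomicrons and VLDL, was at 1897, 1805 and 2219 CPM in knockout and 385, 346 and 404 CPM in wild type. MTTP, which loads lipid onto APOB, was at 1656, 1692 and 2083 CPM in knockout and 353, 348 and 374 CPM in wild type. APOE was at 2973, 3335 and 3039 CPM in knockout and 2096, 2378 and 2205 CPM in wild type, a smaller 1.40-fold rise. APOA1, the main protein of HDL, was at 2612, 2941 and 2999.5 CPM in knockout and 732, 874 and 757 CPM in wild type. In every one of these genes the lowest knockout library lay above the highest wild type library.

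Hepatic genes were higher in most classes. Of 31 secreted liver proteins 21 rose and 2 fell, with a median of 0.68. SERPINC1, antithrombin, was at 17.7, 17.9 and 19.5 CPM in knockout and 3.04, 3.20 and 2.98 CPM in wild type. F10 and SERPINF1 were the 2 that fell, F10, a clotting factor, at 95.3, 101 and 87.4 CPM in knockout and 135, 123 and 137 CPM in wild type. Of 25 complement and acute phase genes 16 rose and 2 fell, with a median of 1.32. C3, the central complement component, was at 2810.5, 2757 and 2869.5 CPM in knockout and 469, 404 and 458 CPM in wild type, a 6.34-fold rise. CRP, C-reactive protein, was at 1.23, 1.49 and 0.770 CPM in knockout and 0.0287, 0.121 and 0 CPM in wild type, a ratio of 23.6 (9.79 to 74.0) at a low level. C7 went the other way, at 11.2, 6.89 and 9.15 CPM in knockout and 66.2, 61.6 and 60.5 CPM in wild type.

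Enzymes of liver and gut metabolism moved the same way. Of 32 genes of gluconeogenesis, the urea cycle and amino acid breakdown 20 rose and none fell, with a median of 0.53. G6PC1, the glucose-6-phosphatase of liver and gut, was at 186, 173 and 239 CPM in knockout and 12.1, 11.2 and 10.6 CPM in wild type, a 17.6-fold rise. PCK1, which commits carbon to gluconeogenesis, was at 23.3, 24.7 and 28.1 CPM in knockout and 4.73, 5.22 and 5.59 CPM in wild type. OTC, a urea cycle enzyme, was at 43.9, 47.8 and 37.4 CPM in knockout and 11.2, 10.1 and 12.1 CPM in wild type. G6PC1 thus differed in direction from its islet relative G6PC2. Of 33 xenobiotic and conjugation enzymes 23 rose and 3 fell (21 and 6 with limma on log2(TPM + 1)), with a median of 1.02. CYP2B6, a drug-metabolizing cytochrome, was at 94.8, 97.9 and 119.99 CPM in knockout and 20.4, 18.4 and 17.6 CPM in wild type, and CYP3A5 at 81.6, 92.2 and 105 CPM in knockout and 17.1, 18.2 and 18.9 CPM in wild type.

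Liver-type and duct-type transcription factors were part of the rise. Of 23 tested pancreatic progenitor and duct factors 15 rose and 3 fell, with a median of 0.47. HNF4A, a nuclear receptor of liver, gut and islets, was at 317, 319.8 and 348 CPM in knockout and 152, 148 and 150.01 CPM in wild type, a 2.19-fold rise. EHF, an epithelial ETS factor, was at 28.3, 24.3 and 20.4 CPM in knockout and 4.13, 3.68 and 5.86 CPM in wild type. ELF3, another of that family, was at 109.9, 114 and 123 CPM in knockout and 41.5, 42.1 and 41.1 CPM in wild type. FOXA2 and FOXA1, pioneer factors of endoderm, fell, FOXA2 to 153, 152 and 161 CPM from 234, 258 and 232 CPM. Duct genes rose in 15 of 18 cases and fell in 1, with a median of 1.01. SPP1, osteopontin, was at 10.2, 11.46 and 15.2 CPM in knockout and 1.72, 1.60 and 1.88 CPM in wild type, and TFF2, a trefoil peptide, at 77.3, 81.2 and 75.4 CPM in knockout and 11.7, 15.6 and 12.9 CPM in wild type. KRT7, a duct keratin, was at 5.07, 4.41 and 5.68 CPM in knockout and 1.26, 1.15 and 1.03 CPM in wild type. Of 20 listed acinar genes 12 passed the filter, of which 7 rose and 1, CPA1, fell, with a median of 0.64. The acinar markers CTRB1, CELA3A, PNLIP and RBPJL were under 0.5 CPM in both groups. Acinar markers summed to 19.3 to 22.7 CPM in knockout and 17.3 to 18.5 CPM in wild type. Without PRSS1 the order turned, with 7.69 to 8.96 CPM in knockout and 11.7 to 12.8 CPM in wild type. CPA1, a digestive carboxypeptidase, was at 6.04, 6.52 and 7.25 CPM in knockout and 10.6, 11.496 and 10.3 CPM in wild type.

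Promoters below are examples of genes that rose and hold GTTAAT, the half-site of the HNF1 family. Most risers lack it: of 1116 promoters of genes up by at least 2-fold, 74 hold it (6.63%). Whether these genes share a regulator was not tested. The match, on either strand, is in capitals. It lies 61 bases before the start in ALB (chr4:73404037-73404286, plus strand), 132 in AFP (chr4:73435971-73436220, plus strand), 226 in G6PC1 (chr17:42900549-42900798, plus strand), 45 in SLC5A1 (chr22:32043011-32043260, plus strand) and 245 in MUC13 (chr3:124934752-124935001, minus strand).
ALB: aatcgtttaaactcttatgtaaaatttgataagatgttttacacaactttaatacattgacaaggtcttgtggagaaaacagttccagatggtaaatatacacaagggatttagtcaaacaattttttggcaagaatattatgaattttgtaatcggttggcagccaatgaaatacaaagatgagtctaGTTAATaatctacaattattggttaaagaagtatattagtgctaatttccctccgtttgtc
AFP: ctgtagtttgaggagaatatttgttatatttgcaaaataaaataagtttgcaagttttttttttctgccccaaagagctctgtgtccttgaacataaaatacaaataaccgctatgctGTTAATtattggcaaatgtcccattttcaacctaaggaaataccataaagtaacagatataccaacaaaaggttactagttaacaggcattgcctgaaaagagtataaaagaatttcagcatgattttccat
G6PC1: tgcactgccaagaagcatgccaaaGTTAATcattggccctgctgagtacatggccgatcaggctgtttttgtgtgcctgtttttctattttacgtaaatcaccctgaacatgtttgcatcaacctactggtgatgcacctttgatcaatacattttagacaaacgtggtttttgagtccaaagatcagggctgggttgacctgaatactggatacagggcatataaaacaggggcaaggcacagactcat
SLC5A1: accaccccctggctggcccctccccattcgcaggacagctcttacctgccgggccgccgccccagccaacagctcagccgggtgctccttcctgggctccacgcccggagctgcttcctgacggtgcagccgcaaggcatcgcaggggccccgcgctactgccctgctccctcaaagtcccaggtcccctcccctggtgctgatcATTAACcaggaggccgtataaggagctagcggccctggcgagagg
MUC13: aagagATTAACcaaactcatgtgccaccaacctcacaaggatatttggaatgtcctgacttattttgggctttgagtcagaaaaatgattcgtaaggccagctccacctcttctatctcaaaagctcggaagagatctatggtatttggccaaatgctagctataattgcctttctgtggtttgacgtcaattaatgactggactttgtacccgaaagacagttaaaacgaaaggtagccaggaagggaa

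Shares of promoters with such letters are a description only, for the 67.1% of tested genes that have a promoter in the RefSeq table. GTTAAT lay in 6.63% of promoters of genes up by at least 2-fold, 4.69% of those down by at least 2-fold, 3.62% of those not called and 6.23% of all 35116 promoters in the table. CAAAGTCCA, a strong HNF4 site, lay in 1.34%, 0%, 0.147% and 0.325%, which is only 15, 0, 10 and 114 promoters. TTTATNG, a CDX site, lay in 10.3%, 6.63%, 5.54% and 8.93%. AGATAA, the letters bound by factors of the GATA family, lay in 10.1%, 7.12%, 4.99% and 9.17%. GTTGCCATG, an RFX half-site, lay in 0.179%, 1.46%, 0.647% and 0.746%, which is only 2, 9, 44 and 262 promoters. CATCTG lay in 11.9%, 9.87%, 8.47% and 12.2%. TATAAA, the TATA box, lay in 11.8%, 9.55%, 6.10% and 10.7%, so genes with large changes in either direction held more AT-rich motifs than genes not called. Both strands were searched, overlaps between motifs were not removed, and base composition moves with these shares, since genes with large changes had fewer CpG. Its part in the shares was not tested.

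Epithelial adhesion genes were broadly higher. Of 33 tight junction and adhesion genes 27 rose and 2 fell, with a median of 1.03. CDH1, E-cadherin of epithelial junctions, was at 237, 223 and 274 CPM in knockout and 56.8, 54.6 and 55.6 CPM in wild type, a 4.40-fold rise. CLDN2, a claudin that forms cation pores, was at 124, 136 and 139 CPM in knockout and 12.4, 12.1 and 12.4 CPM in wild type. CLDN7 was at 293, 306 and 299 CPM in knockout and 56.4, 55.2 and 52.4 CPM in wild type. CEACAM7, an adhesion protein of the colon whose counts may be shared with paralogs, was at 239, 235 and 255 CPM in knockout and 22.0, 19.7 and 22.9 CPM in wild type. CDH2, N-cadherin, and CLDN18 were the 2 that fell, CDH2 to 61.5, 65.9 and 59.0 CPM from 102, 95.7 and 107 CPM. The cadherins therefore moved in opposite directions. Of 30 keratins and cytoskeletal genes 24 rose and 4 fell, with a median of 1.11. S100A14, an epithelial calcium-binding protein, was at 131, 133 and 152 CPM in knockout and 15.5, 18.9 and 17.8 CPM in wild type. LGALS4, a galectin of the gut epithelium, was at 84.2, 93.6 and 83.8 CPM in knockout and 9.69, 8.36 and 8.68 CPM in wild type. Among the 4 that fell were TUBB3, STMN2 and S100A6, the last to 11.3, 12.7 and 7.19 CPM from 45.0, 53.8 and 49.3 CPM.

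Genes of laminins, integrins and the basement membrane went both ways. Of 30 basement membrane genes 19 rose and 7 fell, with a median of 0.73. Chains of the laminin that anchors epithelia rose. LAMB3 was at 142, 136 and 161 CPM in knockout and 15.9, 16.6 and 12.4 CPM in wild type and LAMA3 at 13.4, 14.2 and 17.2 CPM in knockout and 2.98, 3.56 and 3.55 CPM in wild type. By contrast, COL4A1, a main chain of basement membrane collagen, was at 18.2, 19.0 and 15.3 CPM in knockout and 54.2, 51.6 and 55.0 CPM in wild type, and COL4A2 at 45.9, 43.3 and 40.3 CPM in knockout and 103, 94.0 and 105 CPM in wild type. NID2, nidogen of the same sheet, was at 1.84, 1.61 and 2.70 CPM in knockout and 7.94, 7.24 and 7.99 CPM in wild type. These 3 were lower in every knockout library.

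Mesenchymal and matrix genes were mostly lower, with 18 of 29 down, 5 up and a median of -0.79. COL3A1, a fibrillar collagen, was at 7.499, 9.22 and 8.64 CPM in knockout and 85.1, 88.0 and 82.6 CPM in wild type (log2 fold change -3.33, SE 0.09, adjusted p = 7.01e-18). COL1A1 was at 2.71, 2.33 and 2.70 CPM in knockout and 19.0, 20.6 and 19.4 CPM in wild type. COL15A1, a collagen outside that list, was at 0.0646, 0 and 0.193 CPM in knockout and 5.05, 5.61 and 5.56 CPM in wild type, a ratio of 63.6 (32.1 to 148). DCN, the proteoglycan decorin, was at 0, 0 and 0.128 CPM in knockout and 1.84, 2.29 and 1.82 CPM in wild type, near 0 in knockout. The exceptions included LOX, the collagen crosslinking oxidase, at 251, 241 and 347 CPM in knockout and 56.6, 69.7 and 52.0 CPM in wild type, highest in knockout replicate 3. SPARC, a matrix protein, was at 77.2, 82.5 and 101 CPM in knockout and 50.7, 49.1 and 53.8 CPM in wild type. Of 10 tested endothelial and blood genes 5 fell and 2 rose. KDR, the VEGF receptor, was at 0, 0.0621 and 0.128 CPM in knockout and 2.52, 2.35 and 2.28 CPM in wild type, and FLT1, its relative, at 5.62, 5.84 and 7.96 CPM in knockout and 1.78, 1.96 and 2.40 CPM in wild type, in opposite directions. The summed mesenchymal markers above were lower alongside these genes, and their part in the difference was not tested.

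HOX genes, which mark position along the body axis, fell in 6 of 15 tested cases and rose in 4. That is 66.7% called against 45% of all genes, with a median of -0.59. All 6 that fell belong to the HOXB cluster (HOXB2, HOXB3, HOXB4, HOXB5, HOXB7 and HOXB8), although HOXB7 did not pass without wild type replicate 3 (log2 fold change -0.65, adjusted p = 0.0839). HOXB4 was at 0.517, 0.621 and 0.738 CPM in knockout and 11.7, 9.99 and 12.3 CPM in wild type, an 18.003-fold fall. HOXB3 was at 3.81, 3.66 and 4.30 CPM in knockout and 20.5, 19.9 and 20.7 CPM in wild type. HOXB2 was at 0.873, 0.869 and 0.321 CPM in knockout and 5.97, 5.04 and 5.25 CPM in wild type. HOXB5 fell as well, to a mean of 0.883 CPM from 4.43 CPM. Those that rose included HOXA7, from 0.545, 0.392 and 0.547 CPM in wild type to 1.55, 1.34 and 1.80 CPM in knockout. HOXB9 of the same cluster was called higher, at 1.75, 2.45 and 1.61 CPM in knockout and 1.09, 0.754 and 1.34 CPM in wild type (adjusted p = 0.0293). That call was lost without knockout replicate 2 (adjusted p = 0.153), wild type replicate 1 (0.0616) or wild type replicate 2 (0.120), and the difference was negative with limma on TPM, without passing. With limma on log2(TPM + 1), 1 gene of the list rose and 8 fell.

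**Figure D4:**
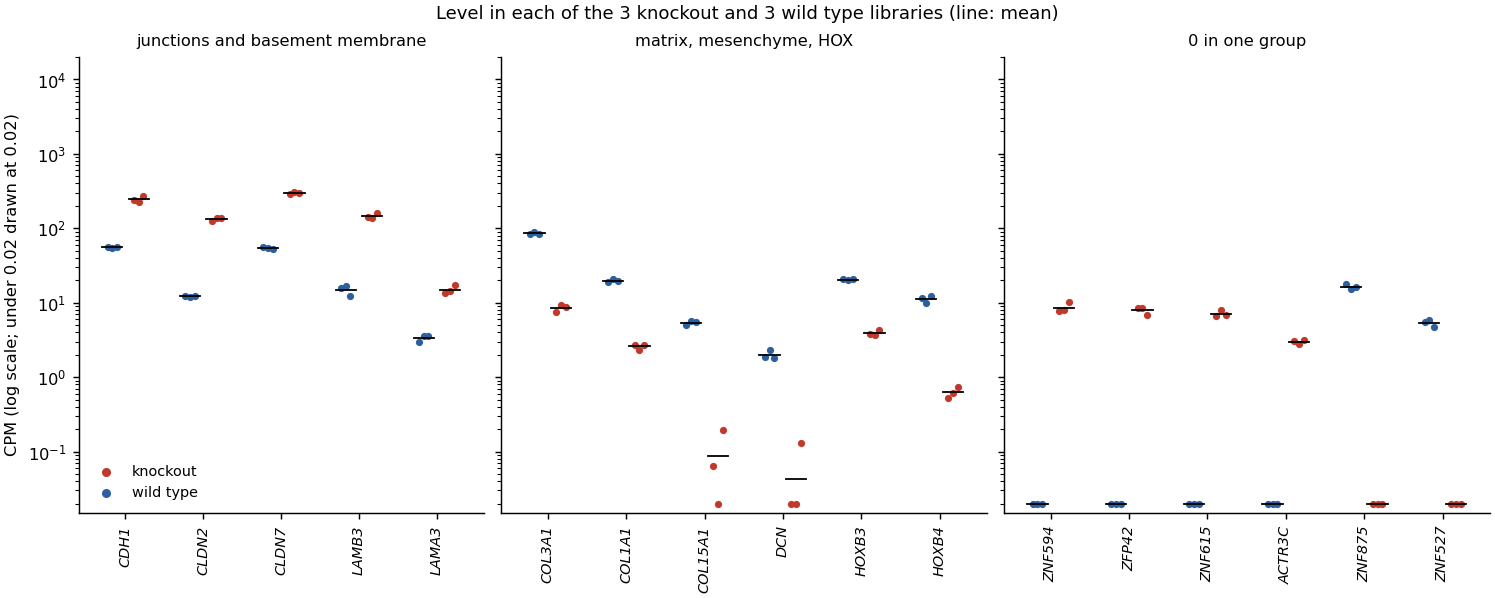
CPM of selected genes in each of 3 knockout (red) and 3 wild type (blue) libraries on a log axis, with a line at each group's mean and values under 0.02 drawn at 0.02. The epithelial genes drawn lie higher and the matrix genes, HOXB3 and HOXB4 lower in knockout, and the last panel holds genes with 0 counts in all libraries of 1 group.

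Regulators of mitophagy, the process CLEC16A is known for, were not called more often than other genes. Of 32 mitophagy regulators 11 rose, 2 fell and 19 were not called. The share called was 40.6%, against 45% of all genes and 52.4% of protein-coding ones. The split was 8 higher and 7 lower with upper-quartile scaling, and 6 higher and 7 lower with limma on log2(TPM + 1). Their median was 0.06 and turned negative under both. RNF41, the ligase partner of CLEC16A, was at 64.4, 62.9 and 61.1 CPM in knockout and 66.9, 58.4 and 64.3 CPM in wild type and did not pass (adjusted p = 0.933). USP8, the deubiquitinase of the same complex, was at 50.3, 50.2 and 55.8 CPM in knockout and 42.1, 36.4 and 45.6 CPM in wild type, a 1.26-fold rise that did not pass with limma on log2(TPM + 1) (adjusted p = 0.637). PINK1, a mitochondrial kinase that starts mitophagy, was at 14.9, 15.4 and 14.3 CPM in knockout and 16.9, 17.3 and 18.9 CPM in wild type (adjusted p = 0.0664), and was called lower with upper-quartile scaling (adjusted p = 0.0175) and in the 3 limma fits on TPM (adjusted p = 0.00366 to 0.00629). RNF41, USP8 and PINK1 are named for their role beside CLEC16A and after their values were seen. The largest riser was OPTN, an autophagy receptor, at 186, 176 and 216 CPM in knockout and 60.5, 62.0 and 56.6 CPM in wild type, a 3.23-fold rise. VDAC1, the main channel of the outer mitochondrial membrane, was at 555, 573 and 646 CPM in knockout and 279, 287 and 284 CPM in wild type. SQSTM1 (p62), another receptor, was at 242, 225 and 228 CPM in knockout and 162, 172 and 163 CPM in wild type. FKBP8, a mitophagy receptor, and DNM1L, the fission GTPase, were the 2 that fell.

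Core autophagy genes showed even fewer calls. Of 36, 5 rose and 5 fell, 27.8% against 45% of all genes, with a median of 0.05 that turned negative with upper-quartile scaling and with limma on TPM. With limma on log2(TPM + 1), 1 rose and 5 fell. MAP1LC3A, an LC3 protein of autophagosomes, fell 2.04-fold, to 22.5, 21.2 and 18.1 CPM from 44.3, 40.7 and 41.1 CPM. Its relative MAP1LC3B rose, to 162, 161 and 186 CPM from 134, 137 and 138 CPM, but not with limma on log2(TPM + 1) (adjusted p = 0.0898). Of 33 endosome to lysosome trafficking genes 14 rose and 1 fell, 45.5% called against 45% of all genes and 52.4% of protein-coding ones. Their median of 0.14 turned negative with limma on TPM. The split was 9 to 5 with upper-quartile scaling and 8 to 5 with limma on log2(TPM + 1). RILP, an effector of RAB7 on late endosomes, was at 19.6, 20.1 and 20.1 CPM in knockout and 4.30, 4.53 and 6.01 CPM in wild type, a 4.03-fold rise. VAMP8, a SNARE of fusion with lysosomes, was at 29.3, 33.2 and 25.2 CPM in knockout and 6.94, 8.15 and 7.01 CPM in wild type.

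Lysosomal genes rose in 31 of 44 cases and fell in 4, with a median of 0.44. CTSS, a cathepsin of antigen-presenting and epithelial cells, was at 81.1, 94.4 and 105 CPM in knockout and 15.6, 15.2 and 15.1 CPM in wild type, a 6.10-fold rise. CTSH was at 86.1, 87.1 and 90.8 CPM in knockout and 25.1, 24.1 and 31.2 CPM in wild type, and CTSA at 225, 225 and 223 CPM in knockout and 103, 90.1 and 108 CPM in wild type. The falls were small and included ATP6V1A, a subunit of the proton pump, at 153, 152 and 155 CPM in knockout and 173, 189 and 185 CPM in wild type, and IDUA, a glycosaminoglycan-degrading enzyme, at 26.8, 32.9 and 28.7 CPM in knockout and 37.3, 39.7 and 36.4 CPM in wild type.

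Nuclear genes of oxidative phosphorylation rose in 18 of 45 cases and fell in none, 40% called against 45% of all genes, with a median of 0.13. With upper-quartile scaling 14 rose and 2 fell (median 0.057), and with limma on log2(TPM + 1) 7 rose and 3 fell (median 0.023). No member reached 2-fold. UQCRC2, a core protein of complex III, was at 213, 204 and 211 CPM in knockout and 157, 146 and 162 CPM in wild type. SDHB, the iron-sulfur subunit of complex II, was at 72.9, 79.9 and 72.2 CPM in knockout and 47.6, 54.0 and 51.2 CPM in wild type, a 1.47-fold rise. UQCRQ, a small complex III subunit, was at 95.2, 107 and 95.3 CPM in knockout and 63.1, 77.5 and 72.8 CPM in wild type. The genes of these complexes encoded in mitochondrial DNA have no counts here. Cytosolic ribosomal proteins, a list of housekeeping genes, were called in 9 of 74 cases, 12.2% against 45% of all genes. Of the 9, 7 were higher and 2 lower. The split was 2 and 12 with upper-quartile scaling, and 1 and 5 with limma on log2(TPM + 1). The list median of 0.06 turned negative with upper-quartile scaling, limma on TPM and without wild type replicate 1.

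**Figure D5:**
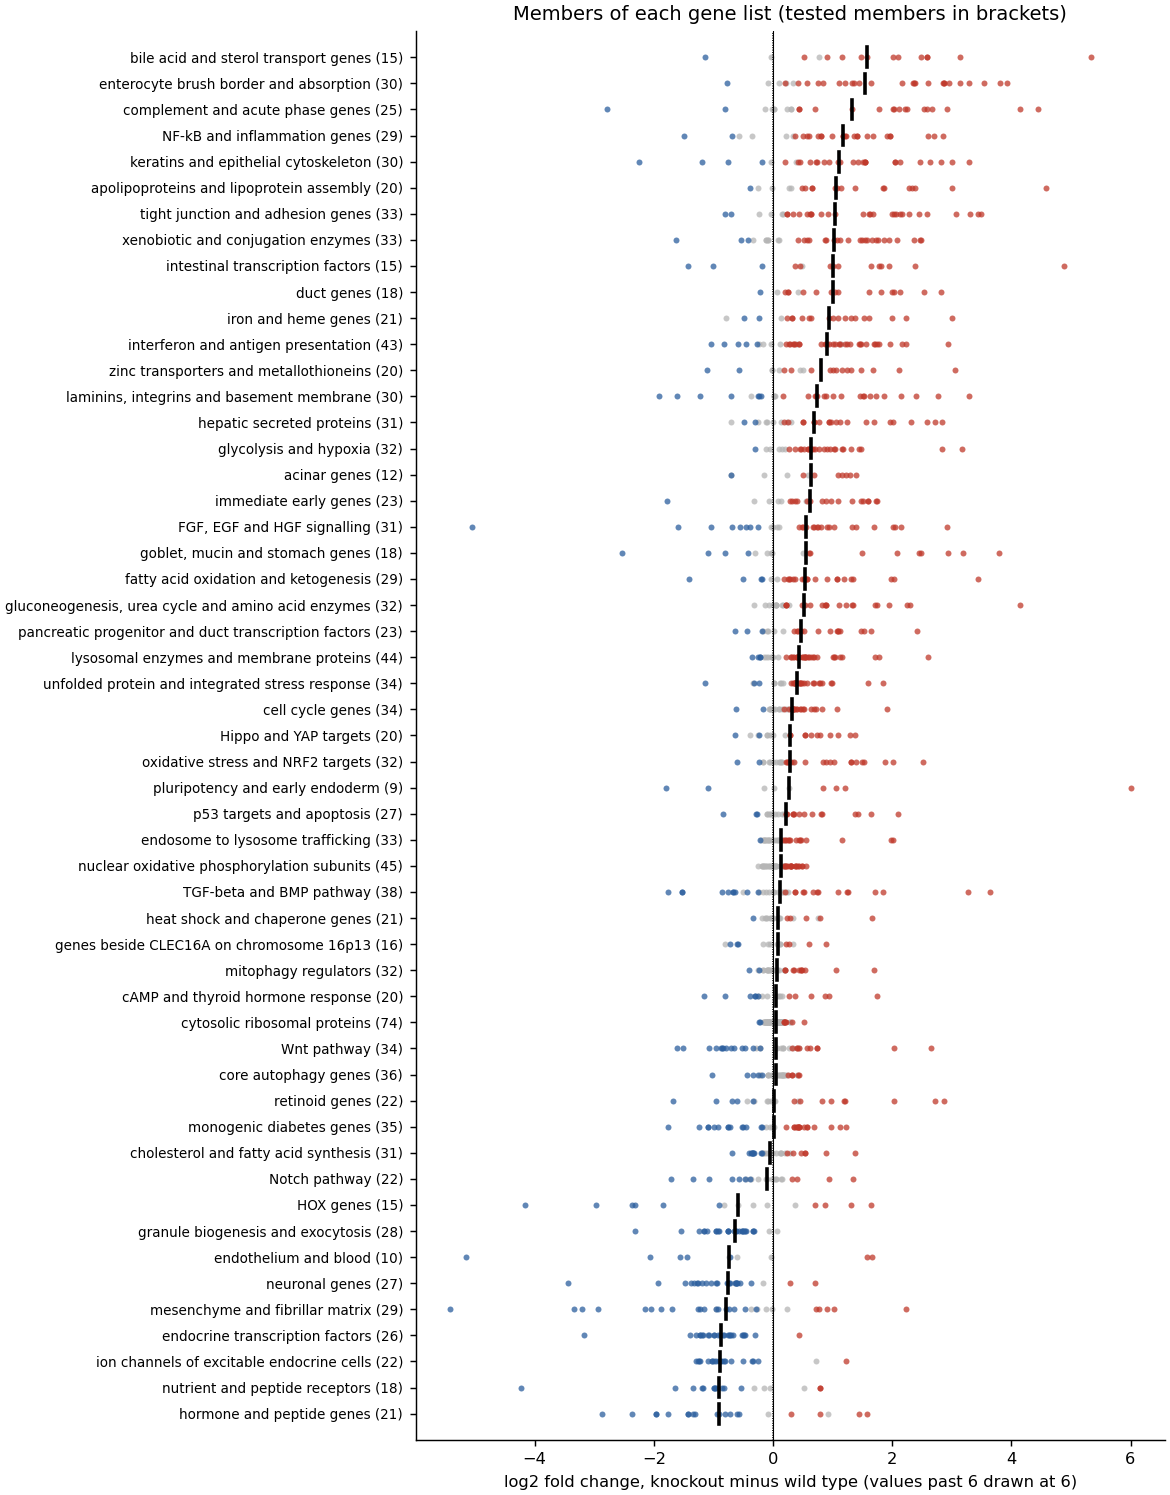
Each point is a tested member of a gene list, at its log2 fold change, knockout minus wild type, in red or blue where it passed an adjusted p of 0.05 and grey where it did not. Values past 6 are drawn at 6. Black bars are list medians, from -0.91 to 1.57, and the dotted line is the median of all tested genes.

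Fuel genes rose in part. Of 29 fatty acid oxidation and ketogenesis genes 23 rose and 4 fell, with a median of 0.53. PDK4, which blocks pyruvate entry into mitochondria, was at 55.4, 52.8 and 52.0 CPM in knockout and 146, 135 and 142 CPM in wild type, a 2.64-fold fall. ACSL5, an acyl-CoA synthetase of gut and liver, was at 398, 440.3 and 491 CPM in knockout and 37.8, 44.1 and 40.8 CPM in wild type. PLIN2, a coat protein of lipid droplets, was at 1040.4, 1038 and 1319.8 CPM in knockout and 277, 306 and 278 CPM in wild type. Of 32 glycolysis and hypoxia genes 26 rose and 1, PFKM, fell, with a median of 0.64. CA12, a hypoxia-inducible carbonic anhydrase, was at 158, 168 and 209 CPM in knockout and 19.9, 19.5 and 19.7 CPM in wild type. HK2, hexokinase 2, was at 141, 133 and 162 CPM in knockout and 52.8, 60.5 and 47.4 CPM in wild type, and SLC16A3, the lactate exporter MCT4, at 456, 460.00 and 479 CPM in knockout and 170.3, 178 and 154 CPM in wild type. Each was highest in knockout replicate 3, and without that library 26 genes of the list rose and 2 fell. Of 31 cholesterol and fatty acid synthesis genes 7 rose and 10 fell, 54.8% called against 45% of all genes and 52.4% of protein-coding ones. Their median of -0.05 turned positive without knockout replicate 3. With limma on log2(TPM + 1), 4 rose and 13 fell. MVK, mevalonate kinase, fell to 31.6, 32.2 and 26.6 CPM from 48.2, 48.4 and 49.9 CPM.

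Stress genes differed by list. Of 34 genes of the unfolded protein and integrated stress responses 25 rose and 3 fell, with a median of 0.40. GDF15, a stress-induced cytokine, was at 437, 408 and 504 CPM in knockout and 125, 137 and 114 CPM in wild type, a 3.59-fold rise. ATF3, a transcription factor of the stress response, was at 24.5, 24.7 and 29.4 CPM in knockout and 9.49, 7.15 and 9.26 CPM in wild type. HSPA5 (BiP), the main chaperone of the endoplasmic reticulum, was at 1056, 1014 and 1165 CPM in knockout and 863, 916 and 834 CPM in wild type, a 1.24-fold rise that did not pass with limma on log2(TPM + 1) (adjusted p = 0.110). It is named after its value was seen. The oxidases that drive protein folding there moved apart, with ERO1A at 327, 294 and 421 CPM in knockout and 175, 195 and 163 CPM in wild type and ERO1B, the islet form, at 176, 163 and 152 CPM in knockout and 374, 366 and 349 CPM in wild type. Of 21 heat shock genes 5 rose and 1 fell, 28.6% called against 45% of all genes, with a median of 0.09 that turned negative with limma on TPM. The split was 5 to 5 with upper-quartile scaling and 3 to 4 with limma on log2(TPM + 1). Of 32 NRF2 targets and oxidative stress genes 18 rose and 2 fell, with a median of 0.29. AKR1C1, an aldo-keto reductase, was at 117, 109 and 141 CPM in knockout and 30.3, 31.5 and 29.8 CPM in wild type, and GPX2, the gut glutathione peroxidase, at 74.1, 74.5 and 67.3 CPM in knockout and 20.7, 12.8 and 25.2 CPM in wild type. Paralogs of AKR1C1 may share reads with it.

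Metal genes were higher. Of 21 iron and heme genes 17 rose and 2 fell, with a median of 0.94. TFRC, the transferrin receptor, was at 753, 758 and 914 CPM in knockout and 169, 185 and 165 CPM in wild type, a 4.67-fold rise. HEPH, an iron oxidase of enterocytes, was at 311, 309.7 and 345 CPM in knockout and 103, 107 and 106 CPM in wild type, and its relative CP, ceruloplasmin, at 569, 555 and 771 CPM in knockout and 71.5, 83.3 and 81.3 CPM in wild type. Of 20 zinc transporters and metallothioneins 13 rose and 2 fell, with a median of 0.80. SLC39A4, the zinc importer of the gut brush border, was at 142, 154 and 131 CPM in knockout and 17.4, 17.95 and 15.8 CPM in wild type. SLC39A5, a basolateral zinc carrier, was at 167, 182 and 173 CPM in knockout and 55.7, 57.9 and 49.0 CPM in wild type. SLC30A8, of insulin granules, and SLC39A6 were the 2 that fell.

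Immune and inflammatory genes were higher in knockout. Of 29 NF-kB and inflammation genes 23 rose and 2 fell, with a median of 1.17. ICAM1, an adhesion molecule for leukocytes, was at 213, 209.98 and 232 CPM in knockout and 28.3, 31.1 and 31.4 CPM in wild type. CCL20, a chemokine of gut epithelium, was at 101, 111 and 112 CPM in knockout and 16.2, 17.1 and 19.95 CPM in wild type. CXCL16, another chemokine of epithelia, was at 250.5, 256 and 292 CPM in knockout and 40.8, 40.2 and 41.2 CPM in wild type. NOS2, inducible nitric oxide synthase, was among the 2 that fell, at 0.970, 0.838 and 0.931 CPM in knockout and 1.86, 2.47 and 3.40 CPM in wild type. Of 43 interferon and antigen presentation genes 32 rose and 5 fell, with a median of 0.91. GBP2, an interferon-induced GTPase, was at 29.3, 33.0 and 41.7 CPM in knockout and 4.36, 4.59 and 4.59 CPM in wild type. PSMB9, an immunoproteasome subunit, was at 17.3, 21.2 and 14.4 CPM in knockout and 3.73, 3.68 and 4.34 CPM in wild type. Those that fell included IFI6, IFIT1 and ISG15, although relatives such as IFIT2 and IFIT3 rose. ISG15, a ubiquitin-like modifier, was at 68.5, 64.9 and 59.5 CPM in knockout and 84.6, 93.0 and 87.5 CPM in wild type, and IFIT1 at 17.8, 13.4 and 14.5 CPM in knockout and 26.8, 24.1 and 30.2 CPM in wild type. CIITA, the master regulator of class II antigen presentation, lies beside CLEC16A and was at 0.840, 1.24 and 2.09 CPM in knockout and 1.35, 1.21 and 1.31 CPM in wild type, with groups that overlapped. CD70, a ligand of the TNF family, was among the 20 largest rises, at 19.6, 22.3 and 22.3 CPM in knockout and 0.975, 1.09 and 0.911 CPM in wild type.

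Of 34 cell cycle genes 21 rose and 2 fell, with a median of 0.32 and 67.6% called against 45% of all genes. With limma on log2(TPM + 1), 9 rose and 2 fell, with a median of 0.17. MKI67, a marker of cycling cells, was at 59.5, 55.4 and 55.2 CPM in knockout and 34.4, 30.2 and 31.8 CPM in wild type, a 1.77-fold rise. CCND1 rose while CCND2 fell, CCND1 to 332, 311 and 339 CPM from 157, 153 and 157 CPM and CCND2 to 66.5, 69.6 and 67.3 CPM from 107, 106 and 102 CPM. Inhibitors of the cycle were divided. CDKN1A (p21), a p53 target, was at 202, 207 and 209.7 CPM in knockout and 47.1, 47.1 and 49.7 CPM in wild type, a 4.30-fold rise, and CDKN2A at 18.4, 18.2 and 14.9 CPM in knockout and 4.90, 4.44 and 4.34 CPM in wild type, both higher in each knockout library. CDKN1C was the other faller of the list, at 365, 376 and 377 CPM in knockout and 391, 454 and 406 CPM in wild type (adjusted p = 0.0484). It did not pass when any library but wild type replicate 1 was left out (adjusted p = 0.0503 to 0.182). Of 27 p53 targets and apoptosis genes 15 rose and 3 fell, with a median of 0.22. With limma on log2(TPM + 1), 9 rose and 6 fell, with a median of 0.10. FAS, a death receptor, was at 7.24, 9.19 and 8.09 CPM in knockout and 2.35, 2.93 and 2.52 CPM in wild type. BCL2, which opposes apoptosis, was lower, at 9.18, 7.76 and 8.76 CPM in knockout and 14.7, 17.7 and 13.8 CPM in wild type. Of 23 immediate early genes 17 rose and 1, ARC, fell, with a median of 0.63. FOS was at 24.6, 25.7 and 37.2 CPM in knockout and 7.28, 9.72 and 9.29 CPM in wild type, and EGR1 at 6.72, 7.20 and 8.12 CPM in knockout and 1.95, 2.11 and 3.25 CPM in wild type.

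Signalling pathways were mixed in direction. Of 31 FGF, EGF and HGF genes 19 rose and 8 fell (17 and 3 with limma on log2(TPM + 1)), with a median of 0.56. Ligands of the EGF receptor were among the risers: EGF itself was at 9.31, 7.86 and 9.79 CPM in knockout and 1.00, 0.935 and 1.61 CPM in wild type, and TGFA at 3.85, 4.19 and 3.79 CPM in knockout and 0.918, 0.966 and 0.790 CPM in wild type. HGF, a growth factor made by mesenchyme, was lower, at 0, 0.0932 and 0.128 CPM in knockout and 1.98, 2.96 and 2.79 CPM in wild type, a ratio of 34.6 (16.5 to 86.8). Wnt genes rose in 10 of 34 cases and fell in 14, with a median of 0.05 that turned negative with upper-quartile scaling, with limma on TPM, with a filter of 1 CPM in 3 libraries, and without knockout replicate 3, wild type replicate 1 or wild type replicate 3. WNT11 was at 27.5, 34.1 and 30.1 CPM in knockout and 4.56, 5.76 and 4.19 CPM in wild type. WNT5B was at 39.2, 41.4 and 40.6 CPM in knockout and 9.55, 11.6 and 8.56 CPM in wild type, and WNT5A at 17.8, 20.1 and 16.9 CPM in knockout and 56.0, 56.8 and 55.2 CPM in wild type. The 2 WNT5 ligands thus moved in opposite directions. Of 22 Notch genes 7 fell and 4 rose, 50% called against 45% of all genes and 52.4% of protein-coding ones. Their median was -0.11, in cells all cultured with a gamma-secretase inhibitor. NOTCH3 was at 18.1, 14.5 and 13.9 CPM in knockout and 50.5, 51.4 and 51.0 CPM in wild type, and JAG1, a ligand, at 165, 170.05 and 187 CPM in knockout and 87.5, 94.4 and 89.5 CPM in wild type. Of 38 TGF-beta and BMP genes 15 rose and 10 fell, 65.8% called against 45% of all genes, with a median of 0.12. INHBE was at 16.2, 17.6 and 20.2 CPM in knockout and 1.72, 1.96 and 1.88 CPM in wild type and BMP7 at 2.101, 2.86 and 1.99 CPM in knockout and 9.12, 6.64 and 7.99 CPM in wild type. SMAD7, an inhibitor of the pathway, was at 10.1, 10.4 and 8.57 CPM in knockout and 3.15, 3.68 and 2.03 CPM in wild type. Of 20 genes of the response to cAMP and thyroid hormone 6 rose and 6 fell (3 and 7 with limma on log2(TPM + 1)). That is 60% called against 45% of all genes. THRB, a T3 receptor, was at 72.6, 68.1 and 70.7 CPM in knockout and 37.1, 33.9 and 38.8 CPM in wild type. Retinoid genes rose in 9 of 22 cases and fell in 5, 63.6% called against 45% of all genes. ALDH1A2, which makes retinoic acid, was at 38.2, 40.4 and 50.4 CPM in knockout and 9.01, 12.9 and 9.63 CPM in wild type, and its relative ALDH1A1 at 532, 558 and 476 CPM in knockout and 784, 759.8 and 825 CPM in wild type, in opposite directions. Of 20 Hippo and YAP targets 11 rose and 2 fell, with a median of 0.29. AJUBA was at 228, 203 and 238 CPM in knockout and 90.3, 95.5 and 87.8 CPM in wild type.

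Genes of monogenic diabetes went both ways, with 17 of 35 higher, 14 lower (10 and 13 with limma on log2(TPM + 1)) and a median of 0.01 that turned negative with upper-quartile scaling, with limma on TPM and without wild type replicate 1 or 3. Those lower included ABCC8, KCNJ11, PAX6 and INS, and those higher HNF4A and GLIS3, with the values above. Among the 9 tested pluripotency and early endoderm genes 4 rose and 2 fell. LIN28A, an RNA-binding protein of early cells, was at 14.6, 15.9 and 14.8 CPM in knockout and 48.2, 52.3 and 56.2 CPM in wild type, and DPPA4 at 4.40, 4.63 and 6.39 CPM in knockout and 2.32, 2.23 and 2.095 CPM in wild type.

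Along the genome no chromosome stood far from the rest by its median log2 fold change. Chromosome medians ran from -0.08 on chromosome 8 to 0.05 on chromosome 18. Shares called varied in direction, where 21.3% of all tested genes fell and 23.7% rose. On chromosome 8, 27.3% fell and 20.5% rose, and on X 27.2% fell and 19.3% rose. Chromosome 6 went the other way, with 18.5% lower and 26.7% higher. Of 19091 runs of 25 neighbouring tested genes, the 5th and 95th percentiles of the medians were -0.26 and 0.27. The highest run, on chromosome 3 from 44915257 to 46903799 (hg38), had a median of 1.21, with 15 genes higher and none lower. It holds the chemokine receptor genes CCR1 and CCR2, and LTF, lactoferrin. The next, on chromosome 1 from 206684944 to 211435333, had a median of 1.00 and holds PIGR, which carries IgA across epithelia, FCAMR, CD55 and LAMB3. FCAMR, an Fc receptor, was at 6.14, 6.40 and 7.06 CPM in knockout and 0.115, 0.422 and 0.516 CPM in wild type. On chromosome 4, from 73397114 to 76112802, a run with a median of 0.81 holds ALB, AFP and a row of CXCL chemokines, 14 genes higher and 4 lower. The lowest run, on chromosome 16 from 681671 to 1225257, had a median of -0.65, with 12 genes lower and none higher, SSTR5 and CACNA1H among them. It lies on the chromosome of CLEC16A but far from the gene. A run on chromosome 19, from 36714383 to 38208372, had a median of -0.58, with 12 lower and none higher. It is a cluster of zinc-finger genes that holds ZNF875 and ZNF527, and 11 of its 12 lower members are ZNF genes.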

How the data were processed

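RNA-seq of 6 libraries, 3 titled C16-KO and 3 titled C16-WT, was used, and the other 6 libraries of the series entered only 1 alternative fit. The authors deposited a table of raw read counts per gene and a table of TPM, which is scaled for gene length and library size. The tools listed, per the submitters' processing notes, are HISAT2 2.2.1, StringTie 2.1.7 and fastp 0.22.0, with build hg38. Strand use, annotation and counting program were not given in the sources used here. Overlapping genes and close paralogs may therefore share reads.

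Counts were filtered with filterByExpr, scaled with TMM and tested with edgeR 4.0.16 (R 4.3.3) by its robust quasi-likelihood F test on the 6 libraries, with no covariate and Benjamini-Hochberg adjustment over all tested genes. Every adjusted p comes from that test unless another tool is named. The threshold was 0.05. Alternatives were DESeq2 1.42.0, limma 3.58.1 on log2(TPM + 1) or log2(TPM + 0.1), other scalings and filters, a replicate block, 1 fit of all 12 libraries and leaving out each library. On counts simulated for 19264 tested genes of this comparison, edgeR found 73.7% of 99 genes changed 2-fold and 94.8% of 96 changed 4-fold. Of its calls there 5.20% were false. Far fewer genes were changed in the simulation than the 45% called here, so these rates need not hold for the calls above.

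A floor of 3 counts per library set the bound of a fold against a group at 0. Ratios of low counts carry exact 95% intervals that cover counting error only. Gene positions come from GENCODE v29 and were found for 19666 tested genes. Promoters come from RefSeq (GRCh38.p14).

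Named genes are CLEC16A, its neighbours, the 20 largest rises and falls at 5 CPM or more without overlap, the 10 largest changes in TPM and the 10 highest TPM levels, up to 4 members per list and direction at 1 CPM or more, genes at 0 in 1 group and members of the extreme runs of 25 neighbouring genes. Other named genes were picked after their values were seen. The comparison and the 53 gene lists were chosen with earlier results of these data known, so list counts are descriptions. Marker sums without the most abundant marker were added after seeing the data.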

Additional observations from a re-analysis of the deposited data

How the results depend on the processing

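Of 8985 called genes, 65.8% to 99.9% were called in the same direction under each of 16 alternatives, fewest with limma on log2(TPM + 1) without a filter. Genes higher in knockout numbered 3093 with limma on log2(TPM + 1), 3025 with log2(TPM + 0.1) and 2841 without the TPM filter, against 4732 with edgeR. At 2-fold or more they numbered 1160 with limma on log2(TPM + 1) and 1133 without the filter, against 1745. The cause was not tested. Leaving out 1 library gave 4268 to 4531 higher and 3663 to 3972 lower genes, and at 2-fold or more 1666 to 1792 higher and 989 to 1084 lower.

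No sign of pairing by replicate number was seen: deviations of same-numbered libraries correlated at 0.0115, 0.0108 and -0.0302. Such values cannot show whether the samples were made in pairs. With the replicate number as a block 4626 genes were higher and 4137 lower, and 96.4% of calls were kept. Not every library correlated best with its own number.

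Of 220 genes named with a test, HOXB9 alone changed direction where either fit called it. Its log2 fold change was 0.87 with edgeR, -0.39 with limma on log2(TPM + 1) with or without the filter, -1.82 with log2(TPM + 0.1), and 0.66 to 1.06 with 1 library left out. Over 3511 pairs of gene and alternative, 31 others lost the call and 7 gained it. Of 848 pairs of list and alternative, 17 turned the sign of a median larger than the spread between libraries, and another 169 moved a median by more than that spread, some of them turning the sign of a smaller median. That of mitophagy regulators was -0.015 with upper-quartile scaling, -0.026 with limma on log2(TPM + 1) with or without the filter and -0.027 with log2(TPM + 0.1). In the 3 limma fits, in the order log2(TPM + 1), the same without the filter and log2(TPM + 0.1), endosome to lysosome trafficking was at -0.052, -0.052 and -0.053, and heat shock genes at -0.082, -0.069 and -0.082. The cAMP and thyroid hormone list was at -0.016 with upper-quartile scaling and at -0.17, -0.13 and -0.18 in the limma fits. With 1 library left out it ran from -0.038 to 0.059, and was at -0.038 without knockout replicate 3, -0.034 without wild type replicate 1 and -0.035 without wild type replicate 3. The cause was not tested.

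Of genes under 1 CPM 17.4% were called, and whether depth or the number of libraries set that share was not tested.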
